A study of Macaca mulatta with 304 samples.

Results

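Naive lymphocyte genes were followed in whole blood RNA of rhesus macaques (Macaca mulatta) before and after irradiation of the thorax. The group was chosen by symbol as TCF7, LEF1, CCR7, IL7R, SATB1, BACH2, CD27, NELL2 and ABLIM1, which are 9 genes known for high expression in naive T cells. Of these, 8 had a row among the 21070 genes with counts, and CD27 was not analysed here. The count of NELL2 was 0 in 271 of 304 samples and at most 4 in any sample, so that its level could not be followed. The reason for its low counts was not tested. The other 7 genes were among the 13751 genes that passed the filter (3 counts or more in 80% or more of the samples) and were tested.

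The study used 28 animals of Chinese origin, 3 to 5 years old, of which 12 (6 females and 6 males) received 9.8 Gy (lower dose, LD) and 16 (8 females and 8 males) received 10.7 Gy (higher dose, HD) to the thorax from a linear accelerator. Animals were given tramadol or buprenorphine against pain, and dexamethasone when breathing became too fast, so that steroid treatment was part of the model, and which animals were treated was not used here. Control samples were drawn 2 days before irradiation (Day -2) from 24 of the animals, 12 of each dose group, and no animal went through the study without irradiation. Irradiated samples were split into an early window up to Day 21 (28 animals), a medium window up to Day 90 (95 of 28 animals) and a late window beyond it (53 of 16 animals). Of the 14 animals with a control and late samples, 12 were LD and 2 were HD, and from Day 180 on 5 LD animals and 1 HD animal remained.

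Naive T cells are mature T cells that have not yet met their antigen. They recirculate between the blood and lymph nodes, which they enter by following chemokines through the receptor CCR7, and they stay alive by reading the cytokine IL-7 through the receptor chain IL7R. TCF7 encodes TCF-1 and LEF1 its close relative, a pair of DNA-binding proteins that hold the naive and memory programme in place. SATB1 organises chromatin in developing and naive T cells, BACH2 represses the effector programme in T cells and is also made by B cells, ABLIM1 binds actin, and NELL2 is a secreted protein that serves as a transcript marker of naive T cells. On activation and effector differentiation these transcripts fall, and lymphocytes are among the most radiosensitive cells of the body. In whole blood, fewer cells of a type and less RNA per cell cannot be told apart.

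On assembly Mmul_10 the 8 genes with counts lay on 7 chromosomes, TCF7 at chr6:131551558-131584973 (plus strand), LEF1 at chr5:106411810-106535836 (minus strand), CCR7 at chr16:51706765-51717446 (minus strand) and IL7R at chr6:35634225-35656839 (plus strand). SATB1 lay at chr2:29263868-29363646 (plus strand), BACH2 at chr4:83097887-83465461 (plus strand), NELL2 at chr11:43964447-44338844 (minus strand) and ABLIM1 at chr9:114949909-115288826 (minus strand). No exon of another annotated gene overlapped an exon of these genes on either strand. The 250 bases before the annotated RefSeq start (Mmul_10) are shown for 3 of the genes that fell together on Day 40, written 5′ to 3′ on the strand of the gene, with matches to the motifs searched in capitals. They span chr6:131551308-131551557 (plus strand) for TCF7, chr5:106535837-106536086 (minus strand) for LEF1 and chr6:35633975-35634224 (plus strand) for IL7R.
TCF7: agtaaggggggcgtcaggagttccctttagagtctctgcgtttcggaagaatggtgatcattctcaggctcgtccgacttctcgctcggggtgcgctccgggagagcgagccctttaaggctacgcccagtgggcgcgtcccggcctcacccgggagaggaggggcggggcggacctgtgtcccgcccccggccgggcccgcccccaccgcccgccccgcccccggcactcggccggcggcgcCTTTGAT
LEF1: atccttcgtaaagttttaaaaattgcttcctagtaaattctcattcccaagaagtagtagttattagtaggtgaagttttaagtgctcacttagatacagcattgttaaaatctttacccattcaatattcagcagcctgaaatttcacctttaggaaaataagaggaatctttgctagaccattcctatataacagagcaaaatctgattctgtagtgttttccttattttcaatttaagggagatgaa
IL7R: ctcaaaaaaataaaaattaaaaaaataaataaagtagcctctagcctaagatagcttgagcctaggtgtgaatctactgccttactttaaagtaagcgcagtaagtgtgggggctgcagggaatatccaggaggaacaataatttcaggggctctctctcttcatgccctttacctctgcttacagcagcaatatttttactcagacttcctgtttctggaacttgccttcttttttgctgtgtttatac
Searched on both strands were CTTTGAT and CTTTGTT, cores bound by TCF-1 and LEF-1 themselves, CCGGAA (bound by ETS proteins) and TGTGGT (bound by RUNX proteins). CTTTGAT stood 7 bases before the start of TCF7 and before none of the other 7 genes, and 2.18% of 20774 promoters of this length held it. TGTGGT stood before 2 of the 8 genes and in none of the 3 stretches shown, against 11.2% of all promoters. CTTTGTT and CCGGAA were in none of the 8, against 4.18% and 12.9% of all promoters. The stretches differed widely in base composition, with a GC content of 71.2% for TCF7, 39.2% for IL7R and 32% for LEF1, and of 81.2% for SATB1 and BACH2. A match is a description of these letters only, and binding was not measured.

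The total count of a sample was between 2840219 and 23638161, with a median of 8227563. The labels carry library numbers, of a meaning that is not stated, from which 3 library series (A, B and C) were formed. Series A and B are separate ranges of numbers, and no distinct number was recorded for libraries of series C. Whether series C is a single batch is not known. Control samples were of series A (20) or C (4), early samples mostly of series A (100, with 8 of B and 24 of C), and medium and late samples of series B or C only, so that at medium and late time points the change from control cannot be told apart from a change of series in most animals. For the medium comparison, 4 HD animals had their control and medium samples in series C. Comparing late with medium samples within series C avoids the change of series, though not a difference between libraries within series C. These values stand beside the results below. Markers of T cells (CD3E), B cells, neutrophils, monocytes, red cells and platelets were all present, as whole blood should hold them, and no gene of the marker lists was at 0 in all samples.

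Before irradiation the members ranged from abundant to moderate. Divided by the length of the exons, so that genes can be compared, the median level of the 24 control samples in CPM (the count of a gene relative to the size of its library) per kilobase was 146.0 for IL7R (range 82.01 to 300.3), 145.5 for TCF7 (84.4 to 281.0) and 143.3 for CCR7 (59.6 to 267.5). These 3 ranges overlapped almost completely, and the order among them is within their spread. ABLIM1 followed with 61.9 (40.4 to 93.3), then LEF1 with 32.9 (19.5 to 49.3), SATB1 with 29.8 (18.7 to 42.4) and BACH2 with 19.1 (11.4 to 38.02). For comparison CD3E, a subunit of the T cell receptor complex, had a median of 240.3 CPM per kilobase. Levels below are CPM of a gene with the library scaled by the upper quartile, without division by length.

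At early time points none of the 7 genes tested changed, that is, none passed both an adjusted p of 0.05 (edgeR's quasi-likelihood test, each animal against its own control) and a fold change of 1.5, where 1.75% of all genes fell past both. TMM scaling, DESeq2, limma on the deposited log2 values and the fit without the replicate block also called none of the 7, and over all genes 7596 had an unadjusted p under 0.05. The genes did not all stay at the same level, however. BACH2 had a log2 fold change of -0.44 ± 0.06 (SE, 24 animals, edgeR adjusted p = 1.47e-06) and was lower than control in 22 of 24 animals, and ABLIM1 had one of -0.33 ± 0.05 (edgeR adjusted p = 5.05e-06), also lower in 22 of 24. Both were under the 1.5-fold limit. For IL7R the log2 fold change was -0.16 ± 0.07 (edgeR adjusted p = 0.0479). TCF7 (-0.13 ± 0.08), LEF1 (0.01 ± 0.06), CCR7 (0.02 ± 0.09) and SATB1 (-0.01 ± 0.05) were close to 0, with 95% intervals inside -0.28 to 0.20.

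By day, IL7R was lower on Day 3, with levels of 258.9, 468.1 and 804.9 CPM (lowest, median, highest of 24 samples) against 379.8, 676.3 and 1391 CPM in control. It was lower in 23 of 24 animals on that day (log2 fold change -0.47 ± 0.07, edgeR adjusted p = 1.21e-06, under the 1.5-fold limit), and on Day 6 its log2 fold change was -0.04 ± 0.10. BACH2 had a control median of 252.8 CPM (151.0 to 503.6) and a Day 3 median of 176.9 CPM (115.2 to 274.9), and on the 5 early days its log2 fold change lay between -0.54 and -0.31. ABLIM1 went from a median of 660.6 CPM (430.8 to 994.5) in control to 499.1 CPM (301.7 to 628.4) on Day 3 and lay between -0.42 and -0.25 on these days. The ranges of all 3 overlapped with control on each early day. On Day 9 SATB1 and LEF1 stood above control, by a log2 fold change of 0.19 ± 0.06 (edgeR adjusted p = 0.00614) and 0.18 ± 0.07 (edgeR adjusted p = 0.0298), again under the 1.5-fold limit. No member was called lower on Day 3, 6, 9, 15 or 21, where 4.62%, 5.48%, 2.43%, 0.894% and 2.73% of all genes were. Genes of the B cell list fell in the same early samples, 11 of 11 tested (median log2 fold change -0.98), and their summed level went from a median of 1677 CPM (412.5 to 2941) to 755.3 CPM (304.5 to 1721). Erythroid genes rose in these samples in 8 of 8 (median 1.63), from a summed median of 6669 to 17748 CPM, as did 3 of 5 platelet genes (median 0.60) and 2 of 7 monocyte genes (median 0.49). The part of these shifts in the members' early values was not tested.

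**Figure D1:**
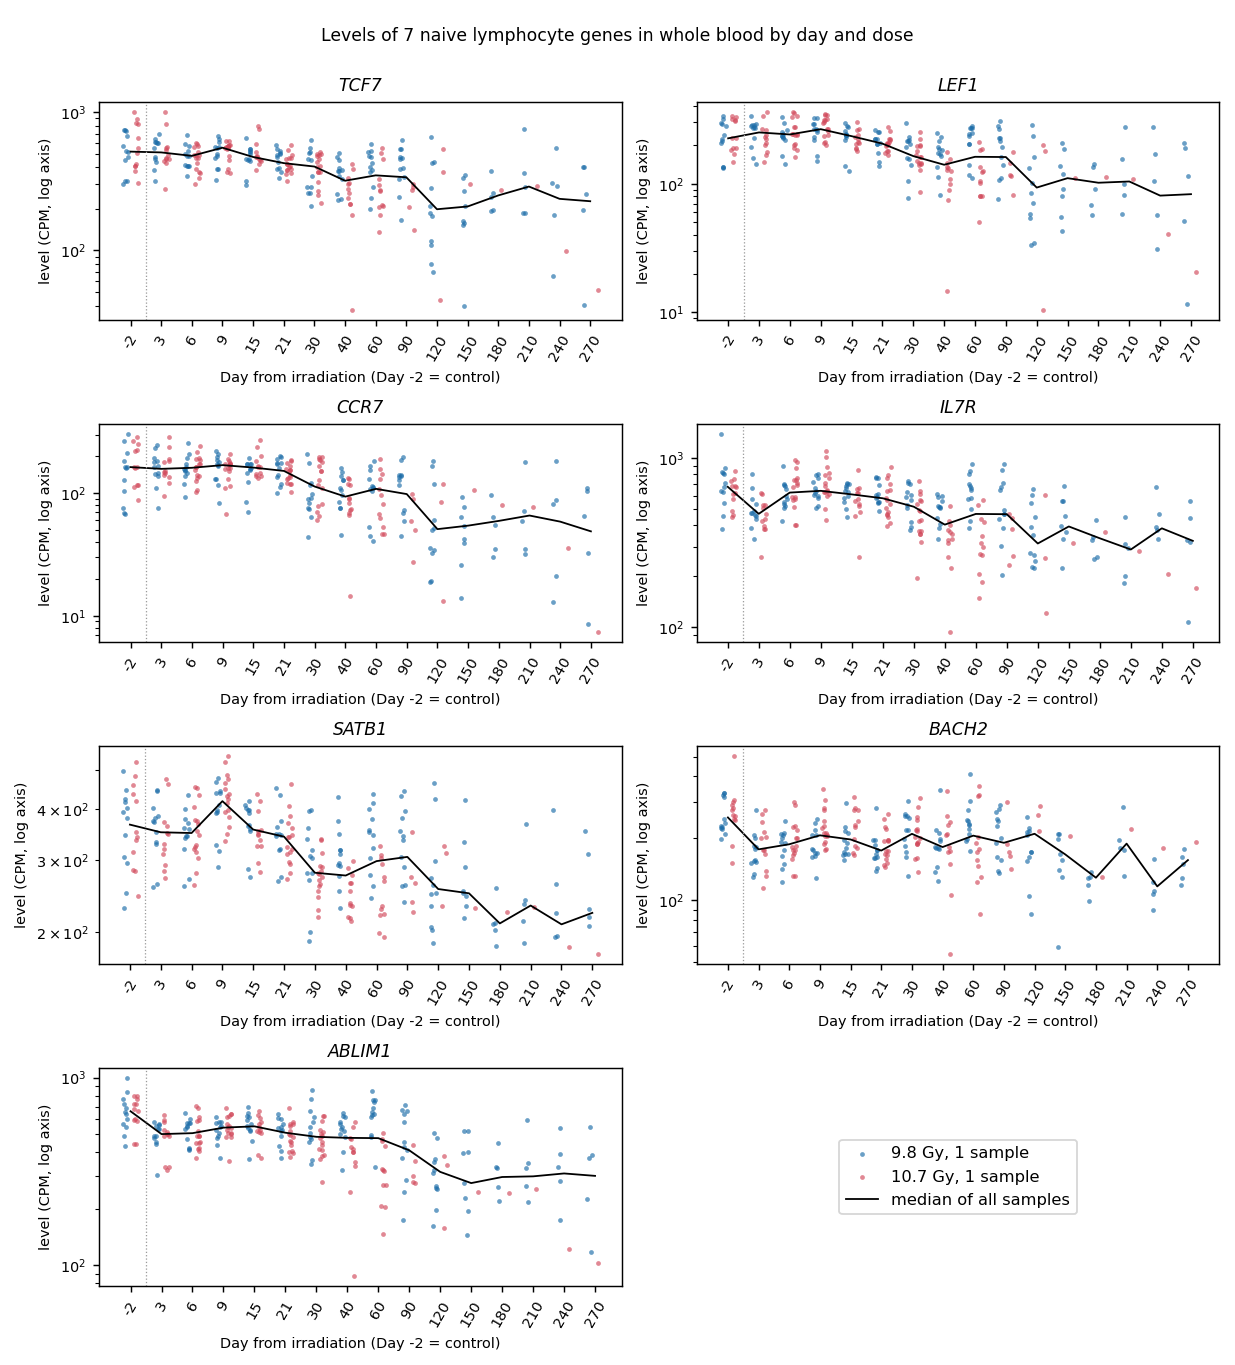
Level of each of the 7 tested genes in every sample at the scheduled days, in CPM on a log axis, with LD samples in blue, HD samples in red and the median of all samples as a line. The median of CCR7 stays between 151.5 and 169.0 CPM from Day 3 to Day 21 and is between 48.8 and 65.7 CPM from Day 120 to Day 270.

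On Day 30 all members stood below control by a modest amount, and on Day 40 part of them fell. On Day 30 all 7 had an adjusted p under 0.05 and a log2 fold change between -0.51 (CCR7) and -0.29 (BACH2), but none reached 1.5-fold, while 1.33% of all genes were called lower. On Day 40, 4 of the 7 fell past both limits, against 2.85% of all genes. With the library scaled within this comparison, TCF7 went from 313.1, 539.7 and 1042 CPM (lowest, median, highest of 24 control samples) to 38.8, 332.5 and 529.0 CPM, and was lower in 24 of 24 animals (log2 fold change -0.83 ± 0.16, edgeR adjusted p = 0.000126). LEF1 went from 139.0, 235.2 and 352.3 to 15.2, 146.4 and 256.9 CPM and was lower in 24 of 24 animals (-0.76 ± 0.15, edgeR adjusted p = 0.000289). These ranges overlapped between control and Day 40, with 10 of 24 Day 40 samples below the lowest control for each of the 2 genes. CCR7 (-0.74 ± 0.15) and IL7R (-0.73 ± 0.12) fell as well, and BACH2 (-0.51 ± 0.09), ABLIM1 (-0.55 ± 0.11) and SATB1 (-0.38 ± 0.07) stayed under the limit. One HD animal, B2007, had the lowest Day 40 level of every member but SATB1, and without it the same 4 genes were called lower.

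From Day 40 to Day 90 the medians are given by dose group. In LD animals the median of LEF1 was 179.3 CPM on Day 40, 240.6 CPM on Day 60 and 205.5 CPM on Day 90, with 12 samples on each day. In HD animals it was 126.7, 114.2 and 117.5 CPM, with 12, 12 and 5 samples. HD animals therefore made up a smaller share of the samples on Day 90. The HD medians of IL7R, BACH2 and ABLIM1 were also lower on Day 60 than on Day 40. The LD samples came from the same 12 animals on each day, but the HD samples did not. Some HD animals were sampled on Day 40 and not on Day 60, and others on Day 60 and not on Day 40. The HD medians therefore do not follow a fixed group of animals. None of the 7 was called lower on Day 60 (1.92% of all genes, 21 animals), with log2 fold changes between -0.58 (CCR7) and -0.24 (SATB1) and an adjusted p under 0.05 for 6 of the 7 by edgeR. On Day 90 (15 animals, 3.19% of all genes) ABLIM1 alone passed both limits, with levels of 455.5, 675.1 and 1051 CPM in control and 183.2, 432.3 and 756.9 CPM on Day 90 (library scaled within this comparison) and a log2 fold change of -0.64 ± 0.12 (edgeR adjusted p = 0.00148, lower in 15 of 15 animals), and it was no longer called without the replicate block. A fit of all 304 samples with library series as a term called 4 of the 7 lower on Day 60, where it called 149 of 13751 genes lower, and 5 on Day 90, where it called 468 lower. That fit took repeat draws of an animal as separate samples. Over the medium window as a whole, with the counts of an animal summed, TCF7 was called lower (-0.62 ± 0.09, edgeR adjusted p = 2.37e-06, 24 of 24 animals), against 1.27% of all genes. The other 6 had log2 fold changes of -0.57 (LEF1, CCR7), -0.55 (IL7R), -0.52 (ABLIM1), -0.41 (BACH2) and -0.35 (SATB1), each with an adjusted p of at most 6.55e-05 by edgeR. In the 4 HD animals with control and medium samples in library series C, 6 of the 7 were called lower, beside 460 of 13751 genes, from -1.09 ± 0.17 for TCF7 to -0.62 ± 0.16 for SATB1, and IL7R was at -0.50 ± 0.17 (edgeR adjusted p = 0.0832). In the medium samples of the 24 animals 5 of 11 B cell genes fell (median -0.57), and none of the 10 T cell receptor complex genes passed both limits (median -0.31). Erythroid genes rose in 6 of 8 (median 0.71), neutrophil genes in 4 of 9 (0.34) and monocyte genes in 2 of 7 (0.47). The part of these shifts in the members' values was not tested.

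**Figure D2:**
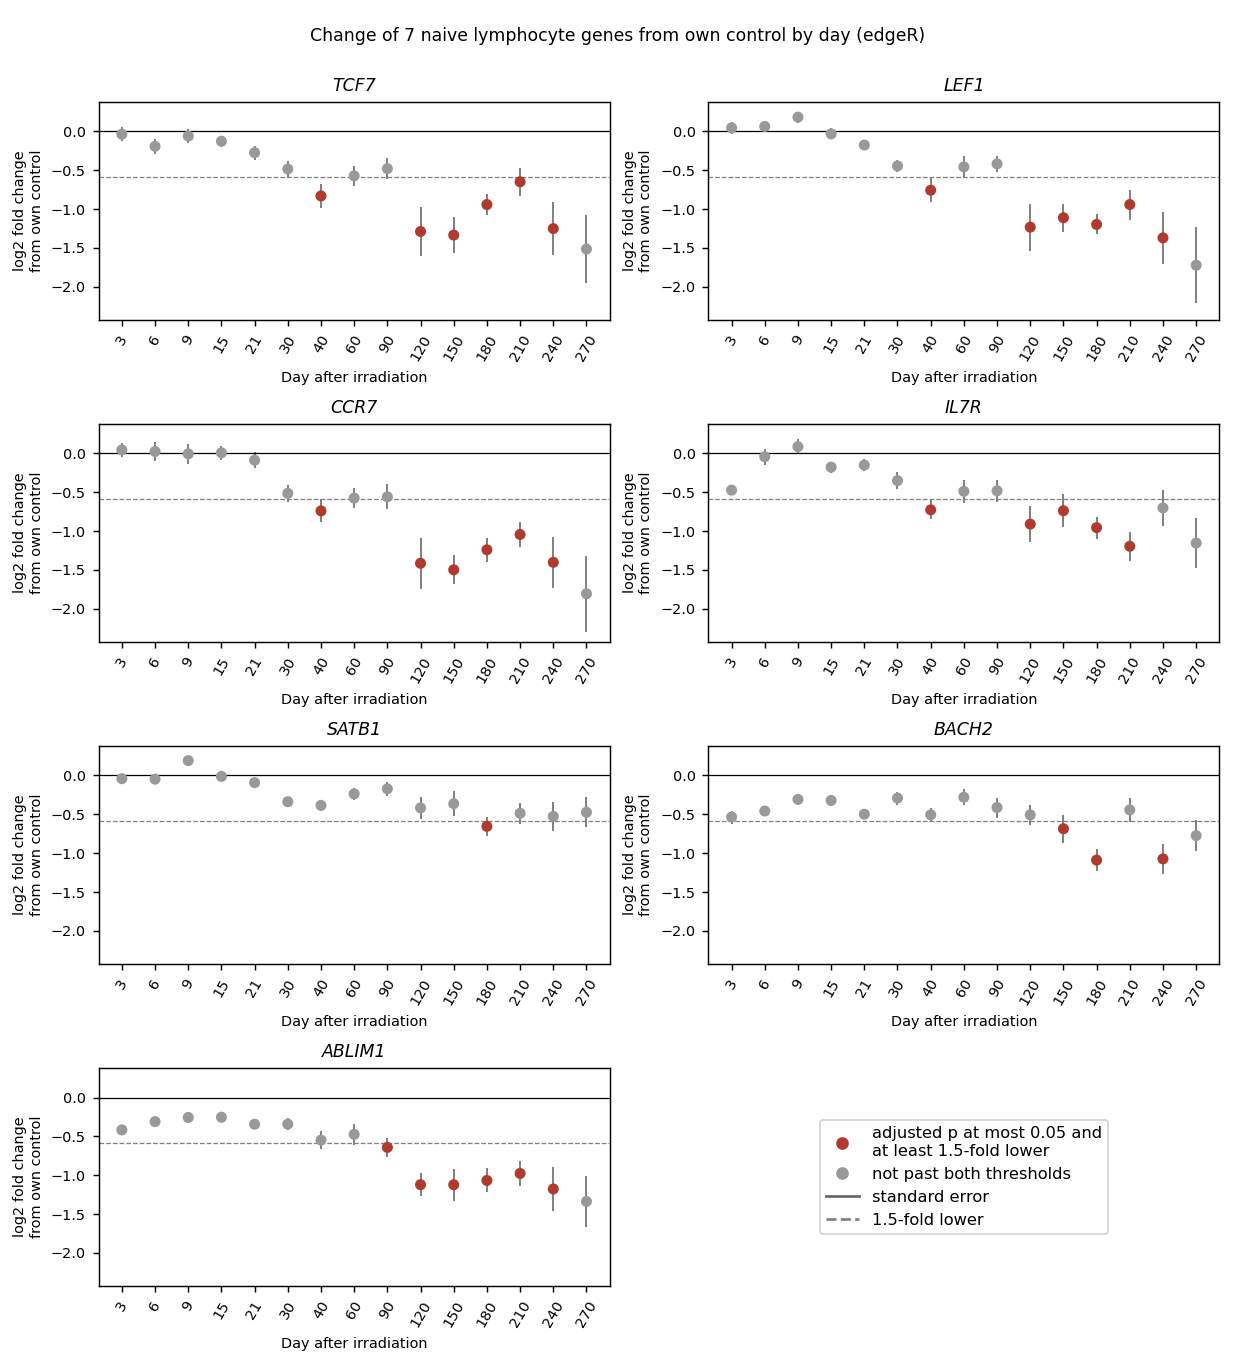
Log2 fold change of each gene from the animal's own control (vertical axis, edgeR) on each scheduled day, with standard errors, a dashed line at 1.5-fold lower, and red points where both limits were passed. From Day 120 to Day 240 TCF7, LEF1, CCR7 and ABLIM1 are red on every day, between -0.65 and -1.498, and on Day 270 all points are grey.

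At late time points 6 of the 7 genes fell, against 18.5% of all genes, and their decreases were the largest of the 3 windows. CCR7 had a log2 fold change of -1.36 ± 0.24 (14 animals, edgeR adjusted p = 0.00016), LEF1 of -1.21 ± 0.21 (edgeR adjusted p = 0.000115), TCF7 of -1.20 ± 0.23 (edgeR adjusted p = 0.000343) and ABLIM1 of -1.17 ± 0.14 (edgeR adjusted p = 7.12e-06). The values of IL7R, -0.94 ± 0.17 (edgeR adjusted p = 0.000163), and BACH2, -0.70 ± 0.12 (edgeR adjusted p = 8.82e-05), were nearer to 0. SATB1 was lower by less than 1.5-fold (log2 fold change -0.50 ± 0.11, edgeR adjusted p = 0.000987, lower in 12 of 14 animals). ABLIM1 and BACH2 were below the own control in 14 of 14 animals, and TCF7, LEF1, CCR7 and IL7R in 13 of 14. The same 6 genes were called with each of the 14 animals left out in turn. Upper quartile scaling put the median of all genes at -0.13 and DESeq2's size factors at -0.01. Of the called genes, 2548 of 4467 were lower with the former and 1784 of 4218 with the latter, and with DESeq2 BACH2, at -0.58, was just short of 1.5-fold. The other 5 genes called kept their calls with DESeq2, and all 6 with TMM scaling, where CCR7 was at -1.27.

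All 7 log2 fold changes were below 0 on each late day, and they differed between genes and animals. On Day 120 CCR7 had levels of 13.1, 50.9 and 184.1 CPM (lowest, median, highest of 14 samples) against 67.8, 162.9 and 304.2 CPM in control, with 9 of 14 samples below the lowest control. TCF7 had 43.7, 198.7 and 657.5 CPM on that day, so that its highest sample stood above the control median of 518.5 CPM. On Day 120, 5 of the 7 were called lower (12 animals, 19.1% of all genes), on Day 150 6 (9 animals, 19.5%), on Day 180 all 7 (6 animals, 9.86%) and on Day 210 5 (6 animals, 16.9%). Day 180 was the one day on which SATB1 was called, with levels of 185.0, 210.0 and 255.9 CPM against 229.5, 366.8 and 521.2 CPM in control (-0.65 ± 0.12, edgeR adjusted p = 0.00228, lower in 6 of 6 animals). BACH2 reached its lowest fold change on Day 180 too, with 99.1, 128.8 and 136.5 CPM in 6 samples, all below the lowest control of 151.0 CPM (-1.09 ± 0.14, edgeR adjusted p = 0.000252).

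The values of the last days rested on 6 animals, which differed widely. On Day 240, 5 of the 7 were called lower (3.51% of all genes). TMM scaling left TCF7 just short of the limit there (edgeR adjusted p = 0.0516). Without the replicate block 2 were called on Day 210 (1913 genes lower) and 1 on Day 240 (368 genes lower). With the block, the Day 240 count was 2 without HD animal B2502, 1 without LD animal B1003, B1502 or B1503, 0 without B1004 and 5 without B1505. On Day 270 none was called (0.00727% of all genes, which is 1 gene, with 4060 genes at an unadjusted p under 0.05), although all 7 were lower than control in 6 of 6 animals, with log2 fold changes from -1.81 ± 0.49 (CCR7, edgeR adjusted p = 0.0763) to -0.47 ± 0.19 (SATB1). DESeq2 called 6 of the 7 on that day (978 of 13751 genes lower), and the fit of all 304 samples with library series called 7 (2361 genes lower). Without LD animal B1003 edgeR called 6, and 1351 genes in either direction. B2502 had the lowest Day 270 level of CCR7, 7.39 CPM, where the other 5 animals lay between 8.57 and 109.7 CPM, and of SATB1, 176.7 CPM against 206.9 to 354.5 CPM. Its ABLIM1 level of 102.3 CPM was the lowest too, against 117.6 to 544.4 CPM. Its BACH2 level of 192.7 CPM stood above those of the other 5, of which the highest was 178.1 CPM, so that its low values were not shared by all members.

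In late samples 5 of the 7 genes were also lower than in medium samples of the same 16 animals. The log2 fold change was -0.81 ± 0.20 for TCF7 (edgeR adjusted p = 0.00203), -0.93 ± 0.22 for LEF1, -0.97 ± 0.20 for CCR7, -0.63 ± 0.14 for IL7R and -0.81 ± 0.12 for ABLIM1 (edgeR adjusted p = 3.49e-05). These 5 were called, against 12.6% of all genes called lower. SATB1 (-0.25 ± 0.07) and BACH2 (-0.34 ± 0.10) stayed under 1.5-fold. With samples of library series C alone, which removes the change of series, the same 5 genes were called and their log2 fold changes lay between -0.92 (CCR7) and -0.67 (IL7R). IL7R was short of 1.5-fold with TMM scaling (-0.55), with DESeq2 (-0.51) and without the filter on low counts (-0.52). The median of all genes was -0.19 with upper quartile scaling and -0.06 with DESeq2, and of all genes called 1733 of 3023 and 894 of 2656 were lower.

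**Figure D3:**
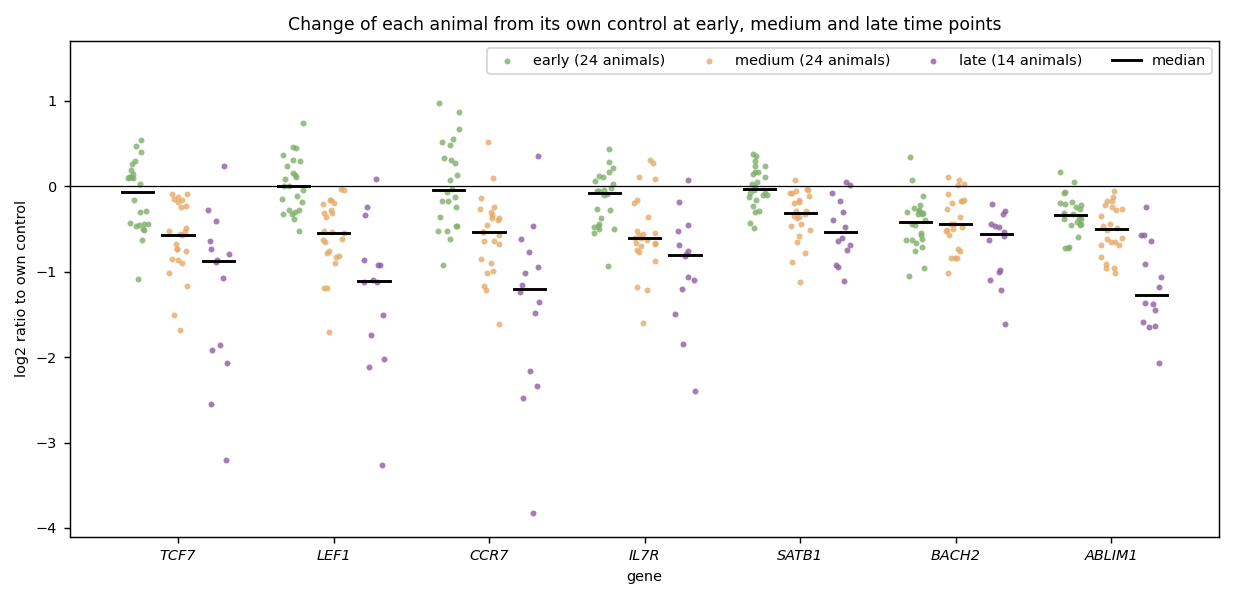
Log2 ratio of each animal's summed samples to its own control for each gene (1 point an animal) at early, medium and late time points, with the median as a bar. The late medians of TCF7, LEF1 and CCR7 are -0.87, -1.11 and -1.20, and single animals reach -3.20, -3.26 and -3.82, while BACH2 spans -1.61 to -0.22.

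Other blood cell genes moved in the same samples, and the counts below stand beside 2548 lower and 1919 higher of 13751 genes in this comparison. At late time points 7 of 10 genes of the T cell receptor complex and its signalling fell (median log2 fold change -0.70), and their summed level went from 1085, 2068 and 2674 CPM (lowest, median, highest) to 706.5, 1100 and 1877 CPM. LCK, the kinase that starts T cell receptor signalling, fell by 0.92 ± 0.16 (edgeR adjusted p = 0.000174), and CD5, a surface protein that tunes it, fell by 1.17 ± 0.24. CD4, the coreceptor of helper T cells, fell by 1.11 ± 0.18 in 14 of 14 animals (edgeR adjusted p = 7.26e-05), whereas CD8B, of cytotoxic T cells, was at -0.41 ± 0.27 (edgeR adjusted p = 0.214). Whether CD4 and CD8B differed from each other was not tested. Of 11 cytotoxic lymphocyte genes 1 changed, GZMB (granzyme B, -0.89 ± 0.15, edgeR adjusted p = 9.15e-05), and PRF1 (perforin) was at -0.58 ± 0.19 without reaching 1.5-fold. All 11 tested B cell genes fell (median -1.94; CD79B, a chain of the B cell receptor, -2.52 ± 0.17, edgeR adjusted p = 2.34e-08), with a summed level of 388.8, 1446 and 2771 CPM before and 162.2, 374.4 and 654.1 CPM after. In the opposite direction, 8 of 9 neutrophil genes rose (median 1.43), from a summed level of 758.1, 2807 and 7690 CPM to 3856, 4861 and 11352 CPM. MMP9, a protease of neutrophil granules, rose by 2.25 ± 0.33 (edgeR adjusted p = 3.52e-05) in 14 of 14 animals. Likewise 6 of 8 glucocorticoid responsive genes rose (median 1.39, summed level 1286, 1953 and 4264 CPM before and 1641, 3842 and 10166 CPM after), among them IL1R2, the decoy receptor of interleukin-1, by 3.20 ± 0.59 (edgeR adjusted p = 0.000214), and ZBTB16 (PLZF) by 2.08 ± 0.44. Monocyte genes rose in 4 of 7, among them CD163, the haemoglobin scavenger receptor, by 1.62 ± 0.31 and LYZ (lysozyme) by 1.37 ± 0.26, and platelet genes in 5 of 5, among them PPBP by 1.12 ± 0.18. Of 8 erythroid genes 2 rose and 1, HBB, fell. The median over all genes was -0.13, and the part that these shifts had in the members' values was not tested.

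CD3D, CD3E, CD3G and CD247 encode signalling chains of the T cell receptor complex. To set the members against the amount of T cell RNA, the fits were repeated with the summed counts of these genes in place of library size. On this scale none of the 7 was called lower at early (1.73% of all genes; 6372 genes had an unadjusted p under 0.05) or medium time points (0.08% of all genes), and DESeq2 was not run on it. The scale moved the median of all genes to 0.29 at medium and 0.47 at late time points. At late time points 3 of the 7 were called lower, against 2.21% of all genes. They were CCR7 (-0.77 ± 0.17, edgeR adjusted p = 0.00129), LEF1 (-0.62 ± 0.17, edgeR adjusted p = 0.00515) and TCF7 (-0.60 ± 0.18, edgeR adjusted p = 0.00834). ABLIM1 was at -0.55 ± 0.18 and IL7R at -0.34 ± 0.21, and BACH2 (-0.10 ± 0.22) and SATB1 (0.11 ± 0.18) were near 0 with 95% intervals of -0.52 to 0.33 and -0.24 to 0.46. These 3 calls depended on the reference and on the block. With another set of T cell genes as the reference none of the 7 was called, with CCR7 at -0.56, LEF1 at -0.40 and TCF7 at -0.39, and without the replicate block 1 was called.

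**Figure D4:**
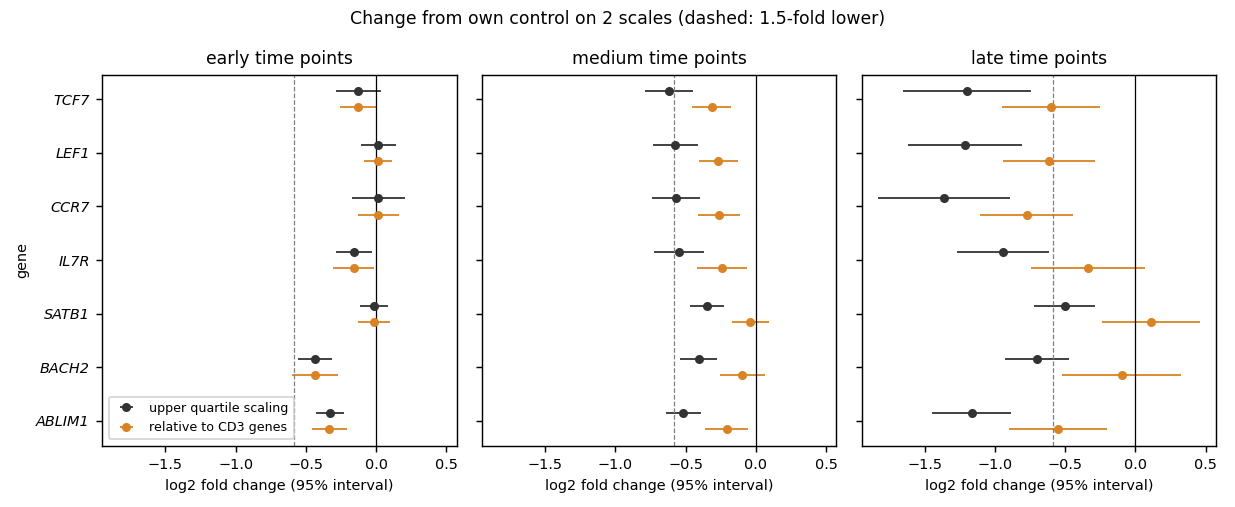
Log2 fold change from own control with 95% intervals for each gene at early, medium and late time points, with upper quartile scaling (dark) and relative to the summed CD3 genes (orange). At late time points the orange points lie to the right of the dark ones, at -0.77 for CCR7 and at 0.11 for SATB1, and at early time points the 2 scales nearly coincide.

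The dose groups were compared by the difference of their changes from control. For early time points (24 animals) none of the 7 genes differed, nor did any other gene (0% called, 761 genes at an unadjusted p under 0.05). The members' differences (HD minus LD) lay between -0.22 and 0.13 on the log2 scale, and the widest interval was that of CCR7, -0.59 to 0.16, so that a difference of 1.5-fold is at its edge. For Day 30 and 40 summed none of the 7 differed either, while 0.0509% of all genes did. LEF1 was at -0.36 ± 0.15 with an unadjusted p of 0.0237 and an adjusted p of 0.446 by edgeR. Females and males did not pass a test of the difference in any of the 7 genes, at early time points (0% of all genes) or on Day 30 and 40 (0%), and on Day 30 and 40 1156 genes had an unadjusted p under 0.05. At early time points DESeq2 called no gene between the sexes either, with 150 genes at an unadjusted p under 0.05. On Day 30 and 40 DESeq2 called 2 genes between the sexes, neither a member. The largest sex difference among the members was that of CCR7 on Day 30 and 40, -0.36 (males minus females), with a 95% interval of -0.72 to -0.01 and an adjusted p of 0.598 by edgeR.

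On Day 60 the dose groups did differ in part of the members. This day was chosen after its values had been seen. In 12 LD animals the Day 60 to control log2 ratio of ABLIM1 had a lowest value of -0.42, a median of -0.01 and a highest value of 0.21, and in 9 HD animals these were -2.45, -1.12 and -0.24. ABLIM1 was lower than control in 7 of 12 LD and in 9 of 9 HD animals, and the difference of the changes was -0.99 ± 0.20 (edgeR adjusted p = 0.000672). For LEF1 the ratios were -0.53, -0.10 and 0.23 in LD and -2.61, -0.87 and 0.15 in HD animals, with a difference of -0.84 ± 0.22 (edgeR adjusted p = 0.00583). For IL7R the ratios were -1.07, -0.18 and 0.61 in LD and -2.29, -0.97 and 0.12 in HD animals, with a difference of -0.79 ± 0.25 (edgeR adjusted p = 0.0194). The ranges of the dose groups overlapped for each of these 3 genes. TCF7 (-0.49 ± 0.23), BACH2 (-0.46 ± 0.19), SATB1 (-0.34 ± 0.14) and CCR7 (-0.17 ± 0.26) were not called. The 3 of 7 stand beside 23.1% of all genes called in either direction, and beside 8 of 9 neutrophil genes that were higher (median difference 2.11), 6 of 8 glucocorticoid responsive genes that were higher (1.34), 9 of 11 B cell genes that were lower (-1.07) and 3 of 10 T cell receptor complex genes that were lower (-0.52) in HD relative to LD animals. Also lower were 5 of 9 genes listed for effector differentiation (median difference -0.80, members -0.49) and 3 of 11 cytotoxic lymphocyte genes (-0.48). Of 20 genes of a longer list of naive T cell and quiescence genes 9 were lower and 1 was higher (-0.23). Monocyte genes were higher in 4 of 7 (1.35), and the median of all genes was -0.12. The part of these shifts in the members' differences was not tested. Library series was not even between the dose groups, since 4 LD animals had Day 60 samples of series B and 2 HD animals controls of series C. In the 15 animals with a control of series A and a Day 60 sample of series C the same 3 genes were called (29.9% of all genes), ABLIM1 at -1.06 ± 0.24, LEF1 at -0.99 ± 0.24 and IL7R at -1.10 ± 0.27.

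**Figure D5:**
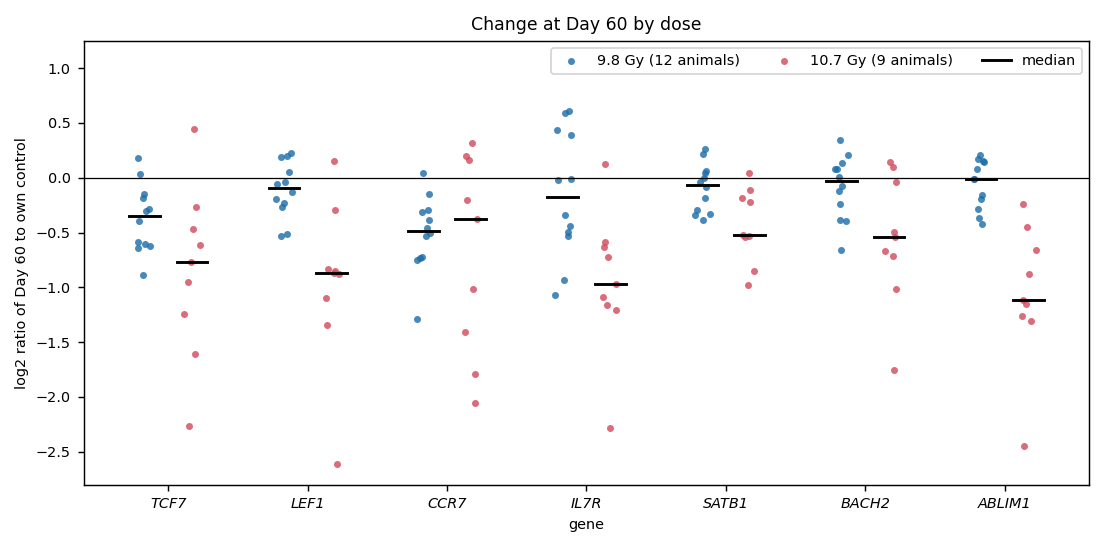
Log2 ratio of the Day 60 sample to the own control of each animal (1 point an animal) for 12 LD animals in blue and 9 HD animals in red, with medians as bars. For ABLIM1 the medians are -0.01 and -1.12, and for CCR7 they are -0.48 and -0.38.

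The wider programme around the members was mixed, and its late counts stand beside the 2548 lower and 1919 higher of 13751 genes as well. Of 20 tested genes of a longer list of naive T cell and quiescence genes, 10 fell and 2 rose at late time points (median log2 fold change -0.53), none passed both limits at medium time points (median -0.24) and 1 fell at early time points (median -0.10). ID3, an inhibitor of E proteins that keeps T cells naive, fell by 1.53 ± 0.23 (edgeR adjusted p = 3.92e-05, lower in 13 of 14 animals), from a mean of 27.8 ± 13.3 (SD) to 8.99 ± 3.70 CPM. AQP3, a water and glycerol channel, rose by 1.496 ± 0.22 (edgeR adjusted p = 3.97e-05) in 14 of 14 animals. The gene that fell early was LRRN3 (-0.59), named after its value was seen. Of 7 genes of IL-7 receptor signalling, JAK3, the kinase bound to the shared cytokine receptor chain, fell late by 1.06 ± 0.19 (edgeR adjusted p = 0.000191), and CISH, a feedback inhibitor induced by STAT5, rose early (0.71 ± 0.07, edgeR adjusted p = 1.82e-09, higher in 23 of 24 animals) and late (0.62 ± 0.18, edgeR adjusted p = 0.0062). The other 5 of this list did not pass both limits at late time points. Of 9 genes listed as regulators or markers of effector differentiation, 1 changed at late time points. This was IKZF2 (Helios), which fell by 0.84 ± 0.14 (edgeR adjusted p = 7.92e-05). PRDM1 (Blimp-1) was at 0.55 ± 0.14 (edgeR adjusted p = 0.0031), under 1.5-fold. These lists were written with earlier results of these data known, and their counts are descriptions.

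The 7 genes moved together to different degrees. With log2 CPM centred within each animal, over the 304 samples, which share animals, days and library series, Pearson's r was 0.939 between TCF7 and LEF1, 0.938 between TCF7 and CCR7 and 0.902 between LEF1 and CCR7. ABLIM1 followed LEF1 with 0.862, and SATB1 and IL7R followed LEF1 with 0.828 and 0.819. BACH2 stood apart, with values from 0.355 (CCR7) to 0.643 (ABLIM1). Among the genes outside the group, the 10 whose levels were most like the mean of the members were RCAN3 (r = 0.962), PCNX2 (0.940), TRIB2 (0.937), DIP2C, SLC41A1, EDAR, TANC1, KCNQ5, FAM102A and AMIGO1 (0.908). PCNX2 had log2 fold changes of 0.05 at early, -0.42 at medium and -0.95 at late time points (late edgeR adjusted p = 0.000275), and EDAR at -0.11, -0.78 and -1.46. None of the 10 belonged to a list used here.

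Blood was also drawn from 8 animals on days outside the schedule, and each of these draws was the last sample of its animal. The paper states that animals with severe signs between scheduled draws were euthanized, with a last sample taken. The labels do not say whether these draws were such samples. The draws of Day 94 and Day 102 were the only late samples of their animals. On Day 94 an HD animal had a TCF7 level of 170.6 CPM, 2.55 below its own control on the log2 scale, with all 7 genes below control. On Day 102 an LD animal had 354.1 CPM, 0.24 above its own control, with 3 of the 7 genes below. In 5 of the 7 draws with a control all 7 genes were below it, and in the other 2 there were 3 and 6. The members were thus below control in most but not all such draws.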

How the data were processed

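Whole blood RNA of 304 samples from 28 rhesus macaques was sequenced after removal of ribosomal RNA. The authors trimmed reads (cutadapt 2.10), aligned them to Mmul_10 (STAR 2.7.6a) and counted them per gene (Subread 2.0.1), and deposited raw counts and normalized log2 values. The strand setting of the counting was not given in the sources used here. The deposited log2 values were used in an alternative only.

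The 13751 genes that had 3 counts or more in 80% or more of the samples entered edgeR's quasi-likelihood test (edgeR 4.0.16, limma 3.58.1, R 4.3.3) with upper quartile scaling. Samples carry animal labels, which pair each irradiated sample with the control of the same animal, and the animal was the replicate block. Counts of an animal were summed over the early, medium or late window, unscheduled draws included, or taken by day. A gene was called when its Benjamini-Hochberg adjusted p over all genes was at most 0.05 and its fold change at least 1.5. Log2 CPM values (correlations, distance of single samples) carry a prior count of 2. The repeat samples of an animal are not independent of each other, which the sums respect and the correlations do not. The fit of all samples with library series has a term for the animal but takes each draw as a separate sample. It also includes animals without a control. Alternatives were TMM scaling, DESeq2 1.42.0, no filter, no replicate block, limma on the deposited log2 values, library series and another T cell reference. Leaving out single animals and the Day 60 dose comparison were chosen after seeing the data. In simulated counts with 200 genes changed 3-fold, 200 were recovered for the early comparison and 146 for Day 270, with 0 and 5 false calls. The simulated animals did not differ in the mean level of a gene, and all early member changes were under 1.5-fold. These numbers therefore check the code and do not measure the power to call the members.

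Members and gene lists were chosen with earlier results of these data known. Named were all members, the 2 genes of each other list with the largest late change, and the 10 genes most like the members. A few of these genes, and of the sequences before gene starts, are not reported here.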

Additional observations from a re-analysis of the deposited data

Results flagged for a closer look

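In 42 groups of 4 to 10 samples (a gene on a day in a dose group), the distance of the lowest or highest sample from its nearest neighbour was compared with Dixon's 95% limit, which chance passes in about 1 of 20 groups, and 2 passed. Both were on Day 150 in 8 LD samples. The lowest TCF7 level was 5.31 on the log2 CPM scale against a median of 7.52, and the lowest BACH2 level was 5.90 against a median of 7.34.

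The change from control to Day 60 differed between the dose groups in 3 of the 7 genes by an interaction term in edgeR, beside 23.1% of all genes. Day 60 was chosen after its values had been seen. The difference, HD minus LD, was -0.99 for ABLIM1, -0.84 for LEF1 and -0.79 for IL7R on the log2 scale (21 animals).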

How the results depend on the processing

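Of 714 log2 fold changes of single members under an alternative, 645 kept their side of the threshold, 25 lost the call, 44 gained it and none that was called changed sign. This tally holds 2 fits of the dose difference on Day 60 set against Day 30 and 40, which is another day and not only another processing. Each gave 7 of the values and 3 of the gained calls. The late comparison had 6 of the 7 members called lower in each of the 14 fits that left out an animal, beside 4083 to 4965 genes called in either direction. The numbers of members called lower that moved by more than 1.5 times were as follows, and the cause was not tested. For the medium comparison (1 called) DESeq2 called 0, limma on the deposited log2 values 3 and control and medium samples of the same library series 6. Over all genes, fewer were called lower with DESeq2 than in the edgeR fit of all animals. More were called lower with limma and in the same library series, so that these member counts moved in the same direction as those of all genes. Without the replicate block, that is, without the pairing by animal, 2 were called in the medium comparison, 1 late relative to CD3 genes (against 3), 0 on Day 90 (against 1), 2 on Day 210 (against 5) and 1 on Day 240 (against 5). Over all genes, about as many were lower without the block in the medium comparison, and fewer in the other comparisons just named. In no other comparison did leaving out the block move the number of members by over 1.5 times. With the other T cell genes as the reference 0 were called late (156 genes lower). A fit of all samples with library series called 4 on Day 60 (against 0, 149 genes lower) and 5 on Day 90 (468 genes lower). On Day 270 it called 7 (against 0, 2361 genes lower), and DESeq2 called 6 (978 genes lower). With 1 animal left out the number was 5 to 5 on Day 120, 5 to 6 on Day 150, 7 to 7 on Day 180, 4 to 6 on Day 210, 0 to 5 on Day 240 (2 without HD animal B2502) and 0 to 6 on Day 270. In these fits the count of all genes called, in either direction, also varied. Relative to its size it varied widely on Day 240 and Day 270, and less on the other days. The dose difference called 3 members on Day 60, in all animals and in 1 pair of library series, against 0 on Day 30 and 40.

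Over all genes, 811 were called on Day 30 and 533 with library series in the fit. On Day 240 the numbers were 930, 2189 with DESeq2 and 3443 with library series, and on Day 270 they were 1, 2344 and 4438. The dose difference on Day 30 and 40 called 7 genes, 0 with TMM scaling and 41 with DESeq2, and on Day 60 it called 3171, or 4106 in 1 pair of library series. From Day 180 on 6 animals limit the tests, and NELL2 had too few counts to be followed.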
